A study of Drosophila melanogaster with 6 samples.

Results

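Wingless (Wg) is the founding Wnt ligand of Drosophila, and 9 genes of its pathway were examined: wg itself, the secretion genes wls and por, the receptor genes fz, fz2 and arr, and the transducer genes dsh, arm and sgg. They were taken as the rows of the deposited table whose gene symbol matched one of these names. All 9 were present among 13517 genes, and all 9 passed the filter on low values described below. RNA sequencing had been run on muscle-enriched lysates from late larvae of the third instar, in 3 control samples and 3 knockdown samples, each a pool of 7 to 10 larvae. Both groups carried Mhc-Gal4, a driver under the promoter of the muscle myosin heavy chain gene. Control larvae carried UAS-mCherryRNAi, directed against a fluorescent protein gene that flies lack, and knockdown larvae carried UAS-twinstarRNAi, directed against twinstar (tsr), the fly cofilin gene, whose product severs actin filaments. Although the tissue field of the labels reads adult musculature, the growth protocol gives larvae, and this was followed.

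Wg is lipid-modified by Porcupine (the product of por) in the endoplasmic reticulum and carried to the cell surface by Wntless (wls, also called Evi). It binds a Frizzled receptor together with the co-receptor Arrow (arr), and Dishevelled (dsh) then blocks the kinase Shaggy (sgg), so that Armadillo (arm, the fly beta-catenin) is no longer marked for destruction and can act with the factor Pangolin in the nucleus. At the larval neuromuscular junction Wg is released by motor neurons and glia. In the muscle, Frizzled2 is taken up, cleaved, and its carboxy-terminal piece is imported into muscle nuclei.

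The driver acts in muscle, but the lysates held other tissues. All 20 sarcomere markers were detected in every sample. Their summed levels were 3058457 to 4271324 scaled counts in the controls and 4558387 to 6257285 in the knockdown, without overlap. Epidermis and cuticle markers summed to 4090774 to 4948023 scaled counts in the controls and 1282747 to 2120293 in the knockdown, without overlap. All 8 of them had a log2 fold change below 0, with a median of -2.25. The larval cuticle genes Lcp1 and Lcp2 and the cuticle-tanning enzyme gene Ddc, 3 of the 8, were called lower, against 7.02% of all tested genes. All 10 neuron markers and all 8 imaginal disc markers were above 0 in all 6 samples. A level in such a lysate mixes cell types, and fewer cells of a type cannot be told apart from less RNA per cell. The recovered reads in genes ran from 37138289 to 41900871 per sample. Control replicate 2 stood apart from the other 2 controls, with which it correlated across genes at 0.759 and 0.813, against 0.951 between those 2. With the knockdown samples it correlated at 0.812 to 0.850, and control replicates 1 and 3 did at 0.840 to 0.893. By genes at 0, however, control replicate 2, with 284, was like the knockdown samples, with 259 to 351. Control replicates 1 and 3 had 1482 and 1006 genes at 0. In the knockdown samples tsr was at 20.2% of the control mean (limma log2 fold change -2.30, adjusted p = 0.00525).

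None of the 9 Wingless pathway genes passed the test between knockdown and control. A scaled count is a gene's number of reads after division by the sample's size factor. The test was limma on log2(scaled count + 1) over the 11720 genes with a mean of at least 10, and a gene was called at an adjusted p under 0.05. Of all tested genes 11.6% were called, 4.58% higher and 7.02% lower in the knockdown. By limma 0 of the 9 members were called, and 0 had an unadjusted p under 0.05, which 29.1% of all tested genes had. edgeR and DESeq2 on the recovered reads also called 0 of the 9, against 9.89% and 24.1% of all tested genes. The members' adjusted p by limma ran from 0.202 to 0.983.

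**Figure D1:**
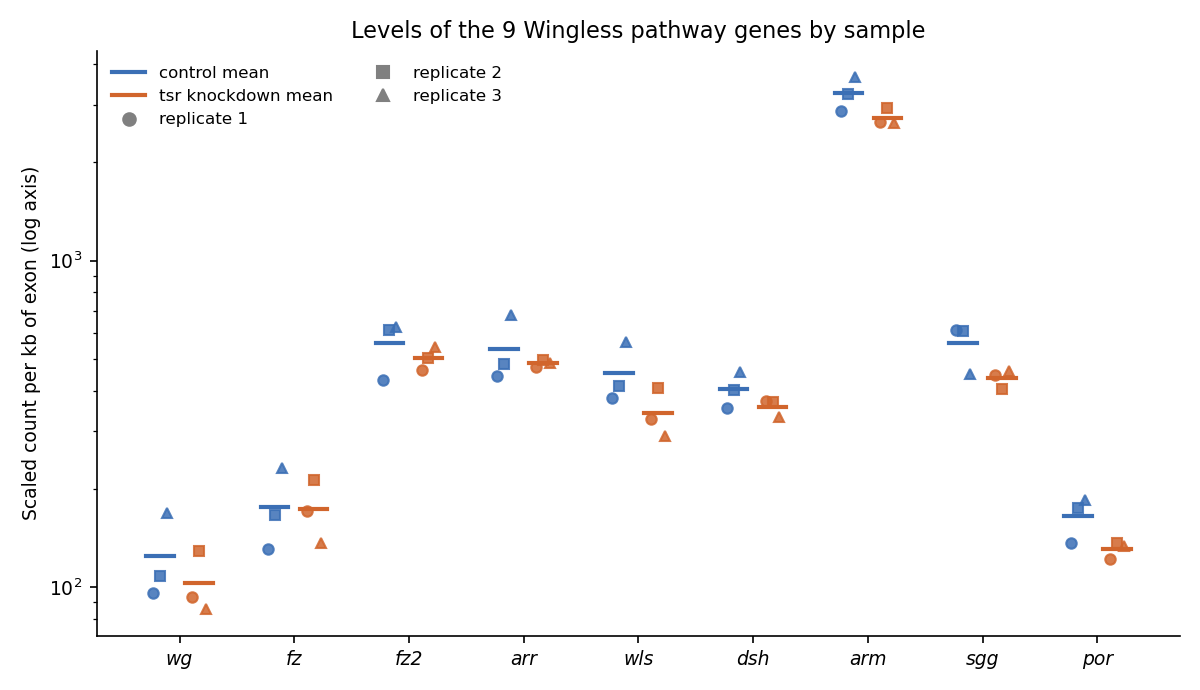
Scaled counts per kb of exon (log axis) of the 9 Wingless pathway genes, with 1 point per sample, point shape for the replicate number and bars for the group means. The control and knockdown points interleave for 8 of the 9 genes, and arm lies well above the others.

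The pathway's genes differed widely in level. Levels of different genes were compared per kb of exon, the union of all annotated exons of a gene. In the controls arm was the highest at 3255 ± 390.3 scaled counts per kb (SD, n = 3). After it came sgg at 558 ± 92.9, fz2 at 558 ± 109, arr at 535 ± 127, wls at 452 ± 98.4 and dsh at 404 ± 51.6 scaled counts per kb, and none of these 5 differed from its neighbour beyond the spread between samples. The length used for sgg, 12.5 kb, is a union over 19 annotated transcripts, so its level per kb is understated if few of them are used. The lowest tier held fz at 176 ± 51.2, por at 165 ± 25.8 and wg at 124 ± 38.8 scaled counts per kb, again not separated from each other beyond their spread. Every control value of dsh per kb, the lowest being 354, lay above every control value of fz, the highest being 232. In the knockdown the mean was again lowest for wg, at 103 scaled counts per kb, and highest for arm, at 2741.

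The ligand gene wg (FBgn0284084, chr2L:7307159-7316265, plus strand) has 1 annotated transcript and overlaps no other gene. Its scaled counts in replicates 1, 2 and 3 were 280.1, 316 and 492 for the control and 271, 377 and 249.7 for the knockdown, the order used for all genes. Control replicate 3 was the highest and knockdown replicate 3 the lowest, and the groups overlapped. The mean was 363 ± 113 in the control and 299.5 ± 68.4 in the knockdown (SD, n = 3 each). The limma log2 fold change was -0.26 (95% interval -0.95 to 0.44, adjusted p = 0.581). These values rested on 215 to 545 recovered reads per sample.

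The wg value depended on the samples used. Without control replicate 3 the log2 fold change was -0.01 (limma adjusted p = 0.98). It was -0.42 without control replicate 1 and -0.43 without knockdown replicate 2. Most imaginal disc markers were, like wg, high in control replicate 3. Control replicate 3 was the highest of the 6 samples for 6 of the 8 disc markers, nub, vg, ap, Dll, esg and eyg, and control replicate 1 was the lowest for 7 of the 8. In all tested genes these shares were 14.6% and 25.5%. The disc markers vg and Dll are also reported targets of Wg, so they are not independent of wg. Control replicate 3 was also the highest for 5 of the 8 epidermis and cuticle markers. It was the highest for 0 of the sarcomere, neuron, glia, blood cell, fat body and trachea markers. Its summed level of the sarcomere markers, 3058457 scaled counts, was the lowest of the 6 samples. Of the 9 pathway genes 3 were lowest in control replicate 1, and wg was lowest in knockdown replicate 3. The disc list summed to 6350, 8080 and 10571 scaled counts in the controls and 9448, 10785 and 9059 in the knockdown. None of the 8 disc genes was called. Wg is a long-known product of imaginal discs. The part of disc RNA or of muscle RNA content in the wg levels was not tested.

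Both secretion genes had lower means in the knockdown without passing the test. Values of wls (FBgn0036141, chr3L:11166620-11169625, minus strand) were 976, 1065 and 1452 scaled counts in the controls and 845, 1051 and 748 in the knockdown. Knockdown replicate 2 lay above control replicate 1, so the groups overlapped. The means were 1164 ± 253 and 881 ± 155 (SD, n = 3 each), the lowest knockdown-to-control ratio of the 9 at 75.7%, with a log2 fold change of -0.39 (95% interval -0.90 to 0.11, limma adjusted p = 0.278). Values of por (FBgn0004957, chrX:18377521-18379854, minus strand) were 317.9, 407 and 432 scaled counts in the controls and 284, 317.8 and 311 in the knockdown. It was the only 1 of the 9 genes whose groups did not overlap, and the gap between control replicate 1 and knockdown replicate 2 was that between 317.9 and 317.8 scaled counts. Among all tested genes 36.4% had groups that did not overlap, 19.6% with the knockdown lower. The log2 fold change of por was -0.33 (95% interval -0.76 to 0.10, limma adjusted p = 0.294), and p = 0.1 was found by an exact permutation test (two-sided), the lowest value possible with 3 samples against 3. The annotation places 344 exonic bases of por over exons of CrebB on the other strand, and whether reads were counted by strand is not given in the sources used here.

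None of the 3 receptor genes passed the test, and each 95% interval left room for a change of either sign. Values of fz (FBgn0001085, chr3L:14274343-14368639, plus strand), the founding Frizzled, were 500.2, 632 and 885 scaled counts in the controls and 651, 810.1 and 519 in the knockdown. The knockdown values fell within the control range. The log2 fold change was -0.01 (95% interval -0.66 to 0.64, limma adjusted p = 0.983), an interval that leaves room for a change of either sign. It was 0.21 without control replicate 3.

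The main muscle receptor gene of the junction, fz2 (FBgn0016797, chr3L:19140975-19235373, minus strand), had 3204, 4561 and 4651 scaled counts in the controls and 3429, 3741 and 4023 in the knockdown. Control replicate 1 was the lowest of all 6 samples, and all knockdown values fell within the control range. The means were 4139 ± 811 and 3731 ± 297 (SD, n = 3 each), with a log2 fold change of -0.13 (95% interval -0.55 to 0.29, limma adjusted p = 0.635). That value was -0.31 without control replicate 1 and -0.04 without control replicate 3. Per kb of exon, fz2 ranged from 432 to 627 scaled counts in the controls and fz from 131 to 232, without overlap.

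The co-receptor gene arr (FBgn0000119, chr2R:13453640-13483229, minus strand), the fly LRP5/6, had 2665, 2915 and 4095 scaled counts in the controls and 2841, 2987 and 2934 in the knockdown. The knockdown samples lay close together, at 2920.5 ± 73.9 (SD, n = 3), against 3225 ± 764 in the controls, where replicate 3 stood above all others. The log2 fold change was -0.12 (95% interval -0.54 to 0.31, limma adjusted p = 0.679), and it was 0.07 without control replicate 3.

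**Figure D2:**
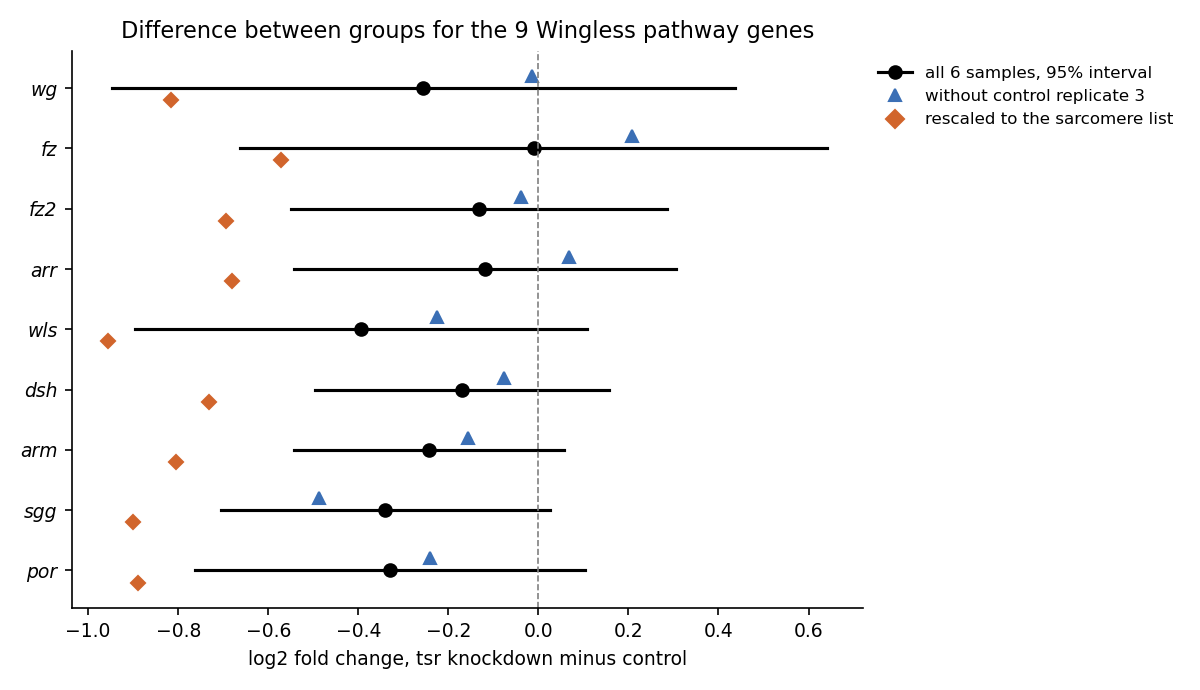
Log2 fold change (knockdown minus control) of each of the 9 genes with its 95% interval from limma on all 6 samples (black), beside the value without control replicate 3 (blue) and the value after rescaling to the sarcomere list (orange). All 9 intervals include 0, the values without control replicate 3 lie closer to or above 0 for every gene but sgg, and the rescaled values lie between -0.96 and -0.57.

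Of the transducers, dsh (FBgn0000499, chrX:11355881-11358724, plus strand), the scaffold that relays the receptor signal, had 1006, 1139 and 1299 scaled counts in the controls and 1057, 1047 and 943 in the knockdown. The groups overlapped, and the log2 fold change was -0.17 (95% interval -0.50 to 0.16, limma adjusted p = 0.448).

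Values of arm (FBgn0000117, chrX:1891401-1900646, minus strand) were 10216, 11588 and 12999 scaled counts in the controls and 9477, 10445 and 9389 in the knockdown. Besides its role in Wg signalling, Armadillo links cadherins to alpha-catenin at cell junctions. Only knockdown replicate 2 reached into the control range. The means were 11601 ± 1391 and 9770.2 ± 586 (SD, n = 3 each), with a log2 fold change of -0.24 (95% interval -0.54 to 0.06, limma adjusted p = 0.263). In the annotation, 82 exonic bases of arm overlap mRpL16 on the other strand.

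The kinase gene sgg (FBgn0003371, chrX:2633952-2679553, plus strand), the fly GSK3, had 7668, 7619 and 5632 scaled counts in the controls and 5569.8, 5069 and 5748 in the knockdown. It was the 1 gene of the 9 that was not highest in control replicate 3, where it was at the level of the knockdown samples. The means were 6973 ± 1162 and 5462 ± 352 (SD, n = 3 each), and its adjusted p was the smallest of the 9 (log2 fold change -0.34, 95% interval -0.71 to 0.03, limma adjusted p = 0.202). Without control replicate 3 the log2 fold change was -0.49 and the adjusted p 0.0799. In the annotation, sgg shares 1470 exonic bases with lncRNA:CR45197 on the same strand.

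Across the 9 genes a single sample stood out. Control replicate 3 was the highest of the 6 samples for 8 of the 9, a count made after the values were seen, against 14.6% of all tested genes. Among the other pathway lists it was also the highest for 11 of the 14 nuclear transducer and co-regulator genes. The log2 fold changes of all 9 were below 0, as were those of 46.1% of all tested genes, with a median of -0.24 against 0.06 over all tested genes. These directions were not stable, since fz turned to 0.08 under upper-quartile rescaling, fz and arr turned to 0.21 and 0.07 without control replicate 3, and fz turned to 0.15 without knockdown replicate 3. Without control replicate 3 the median of the 9 was -0.08, and without control replicate 2, which stood apart over all genes, it was -0.24 with 0 of the 9 called.

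The sarcomere markers mostly had higher means in the knockdown without passing the test. Of the 20 sarcomere genes 19 had a log2 fold change above 0, with a median of 0.65, and only Zasp66 was called, lower. In 12 of the 20 the unadjusted p by limma was under 0.05, against 29.1% of all tested genes. The groups did not overlap in 13 genes of the list, against 36.4% of all tested genes. When all samples were rescaled to the median of that list, the median of all genes moved to -0.50, the 9 pathway genes ranged from -0.96 to -0.57, and 2 of the 9 were called lower, sgg (-0.90, limma adjusted p = 0.00701) and arm (-0.80, limma adjusted p = 0.0399). Under that rescaling 24.7% of all tested genes were called lower. The part of muscle RNA content in these values was not tested.

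**Figure D3:**
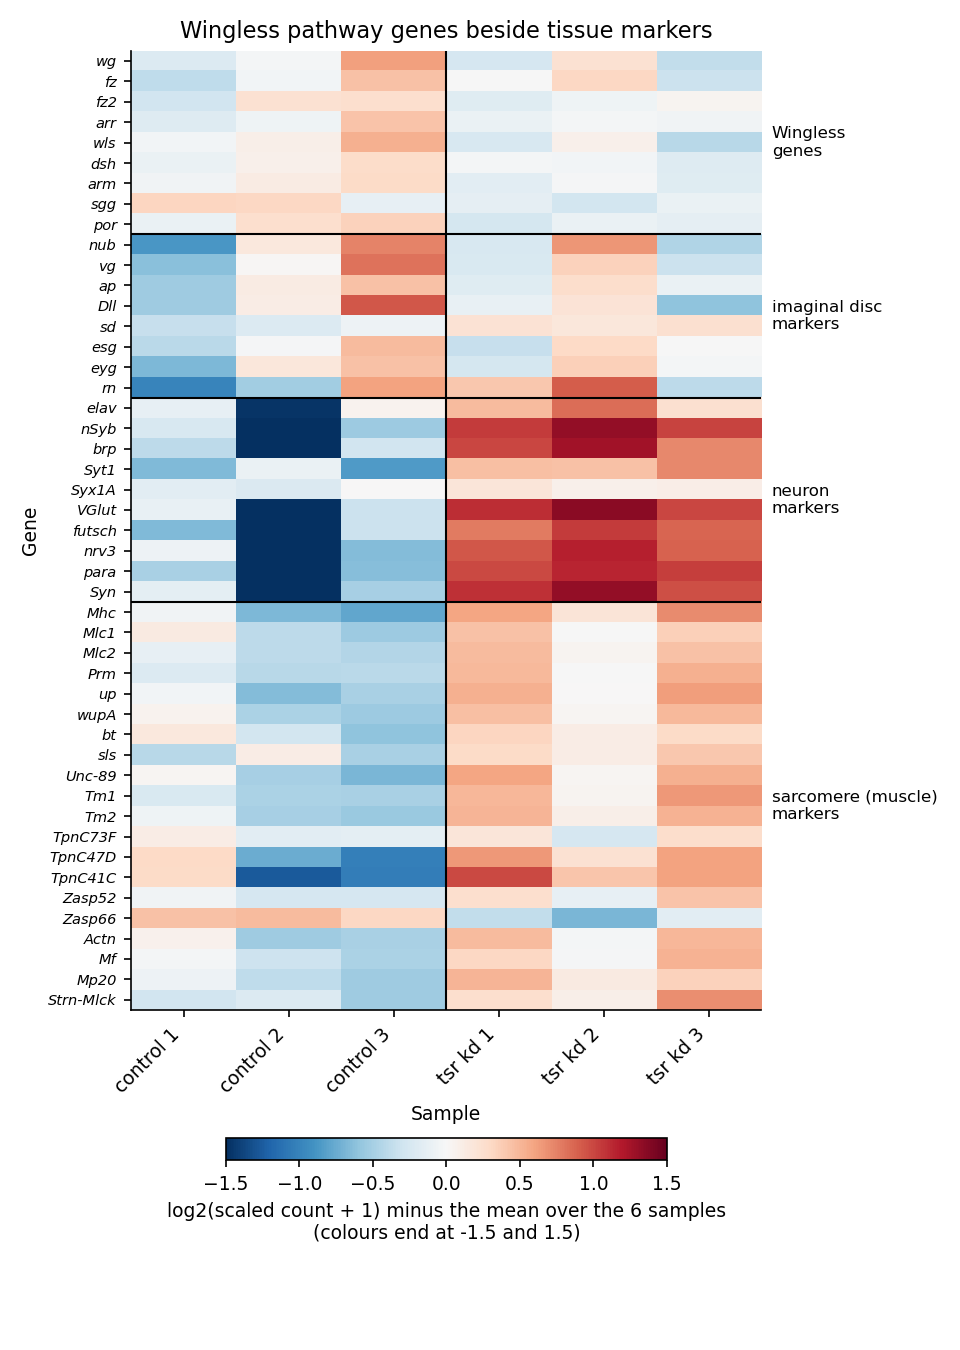
Heat map of log2(scaled count + 1), each gene centred on its own mean over the 6 samples, with samples in columns and the 9 Wingless pathway genes above imaginal disc, neuron and sarcomere markers. Control replicate 3 is the highest sample for 8 of the 9 pathway genes and for 6 of the 8 disc markers, whereas neuron markers and most sarcomere markers have higher values in the knockdown samples.

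For the ligand and the 3 receptor genes, the genes with the most similar course over the 6 samples were found among 9664 genes with a mean of at least 50, by the root mean square difference of centred log2 values. Nearest to wg were CG13300 at 0.06, E(spl)m3-HLH, a Notch-responsive repressor gene, at 0.06 and CG7985 at 0.08 log2 units. The nearest genes of fz were zfh2, a zinc finger homeodomain factor gene, at 0.06, CG11164 at 0.06 and CG5466 at 0.07. Those of fz2 were Hmt4-20, a histone H4 lysine methyltransferase gene, at 0.05, CG8929 at 0.05 and CG11902 at 0.06. Those of arr were osa, a subunit gene of the Brahma chromatin remodelling complex, at 0.04, the polarity gene fy at 0.05 and CG6791 at 0.06. The SD of the members' own log2 values over the 6 samples was 0.36 for wg, 0.33 for fz and 0.22 for both fz2 and arr. Such a likeness over 6 samples is a description only.

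The wider pathway was described by 103 other genes in 10 lists by role, chosen with earlier results of these data known. Of the 103 genes 101 were in the table and 99 were tested. Of the 99 genes 4 were called higher and 11 lower, against 4.58% and 7.02% of all tested genes, and the median log2 fold change was -0.13. The groups did not overlap in 43 of the 99, against 36.4% of all tested genes. The 4 higher genes were Wnt4, Cow, Apc and Grip. Of the 11 lower genes 6 belonged to the secretion and sorting list. The number of calls changed with the samples used. Of the 15 called genes 0 were called without knockdown replicate 1 or without knockdown replicate 2, 1 without control replicate 3, 7 without knockdown replicate 3, 10 without control replicate 1 and 13 without control replicate 2, where all tested genes gave 185, 376, 347, 625, 1213 and 3109 calls in that order. All 15 genes kept their direction in the 6 fits. Without knockdown replicate 1 and without knockdown replicate 2 the log2 fold change of Vps35 was -0.57 and -0.58, against -0.57 with all samples, and that of Grip was 1.49 and 1.68, against 1.49.

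**Figure D4:**
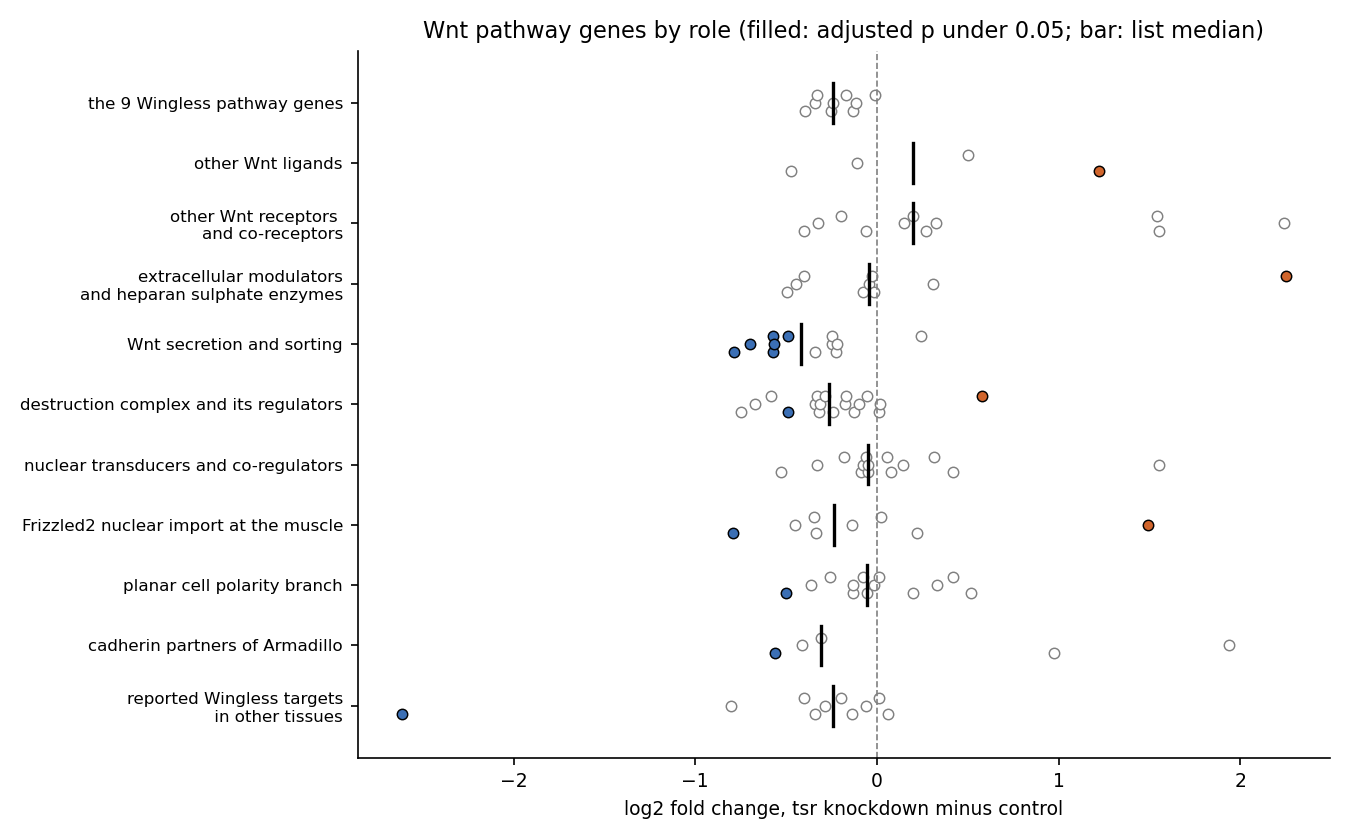
Log2 fold change (knockdown minus control) of every tested gene in the 9-gene set and in the 10 other pathway lists, with a bar at each list's median and filled points for genes with an adjusted p under 0.05 (blue lower, orange higher). The 9 genes are all open points between -0.39 and -0.01, and 6 of the 12 secretion and sorting genes are filled on the lower side.

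Several genes that act in the recycling of Wntless fell in the knockdown. After Wg release, Wntless is returned from endosomes to the Golgi by the retromer, made of Vps35, Vps26 and Vps29, together with the sorting nexin Snx3. Of the 12 tested genes of the secretion and sorting list 6 were called lower and 0 higher, against 7.02% and 4.58% of all tested genes. Since this list was chosen with earlier results of these data known, these counts are a description only. The list median was -0.42. The epidermis and cuticle markers were lower in the same samples, with the median of -2.25 given above. Blood cell and fat body markers were mixed, each list with 4 of its 6 log2 fold changes below 0 and 2 above. Called lower were the blood cell markers He and eater, at -0.79 and -0.92, and the fat body marker Fbp1, at -5.55. In both lists 0 were called higher. Blood cell markers summed to 38113 to 45222 scaled counts in the controls and 36375 to 55317 in the knockdown. Fat body markers summed to 464443 to 1143774 and 687979 to 940326, so both lists overlapped between groups. The part of epidermal, blood cell or fat body RNA in the values of the 11 lower genes was not tested.

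Values of Vps35 were 3866, 3645 and 3716 scaled counts in the controls and 2520, 2555 and 2501 in the knockdown. The knockdown samples were all at about the same level, well below the lowest control. The log2 fold change was -0.57 (SE 0.08, limma adjusted p = 0.015). Values of Snx3 were 3592, 4120.0 and 3710.0 scaled counts in the controls and 2331, 2323 and 2379 in the knockdown, a log2 fold change of -0.70 (SE 0.09, limma adjusted p = 0.0129).

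Snx6, which with Snx1 forms another retromer-associated dimer, fell from 2955 ± 334 to 1711 ± 104 scaled counts (SD, n = 3 each), a log2 fold change of -0.78 (SE 0.12, limma adjusted p = 0.0161). Rab11, the small GTPase of recycling endosomes, fell from 8539 ± 217 to 5743 ± 200.4 scaled counts (SD, n = 3 each), a log2 fold change of -0.57 (SE 0.08, limma adjusted p = 0.0157). The remaining 2 called genes, named after their values were seen, were Vps26 at -0.49 and Snx1 at -0.57 (limma adjusted p = 0.0281 and 0.0357). In all 6 genes, which were picked by their calls, the groups did not overlap. Among all tested genes 19.6% had groups that did not overlap with the knockdown lower. The third retromer subunit gene, Vps29, named after its values were seen, had a log2 fold change of -0.34 and was not called (limma adjusted p = 0.123). These proteins sort many cargoes besides Wntless. Vps35 and Vps26 share 70 and 181 exonic bases with Swim and CG14817 on the other strand. edgeR and DESeq2 also called all 6. Of the 6 fits that each left out 1 sample, Snx3 was called in 4, Vps35, Vps26, Snx6 and Rab11 in 3 and Snx1 in 2, with log2 fold changes from -0.84 to -0.47 across the 6 genes.

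**Figure D5:**
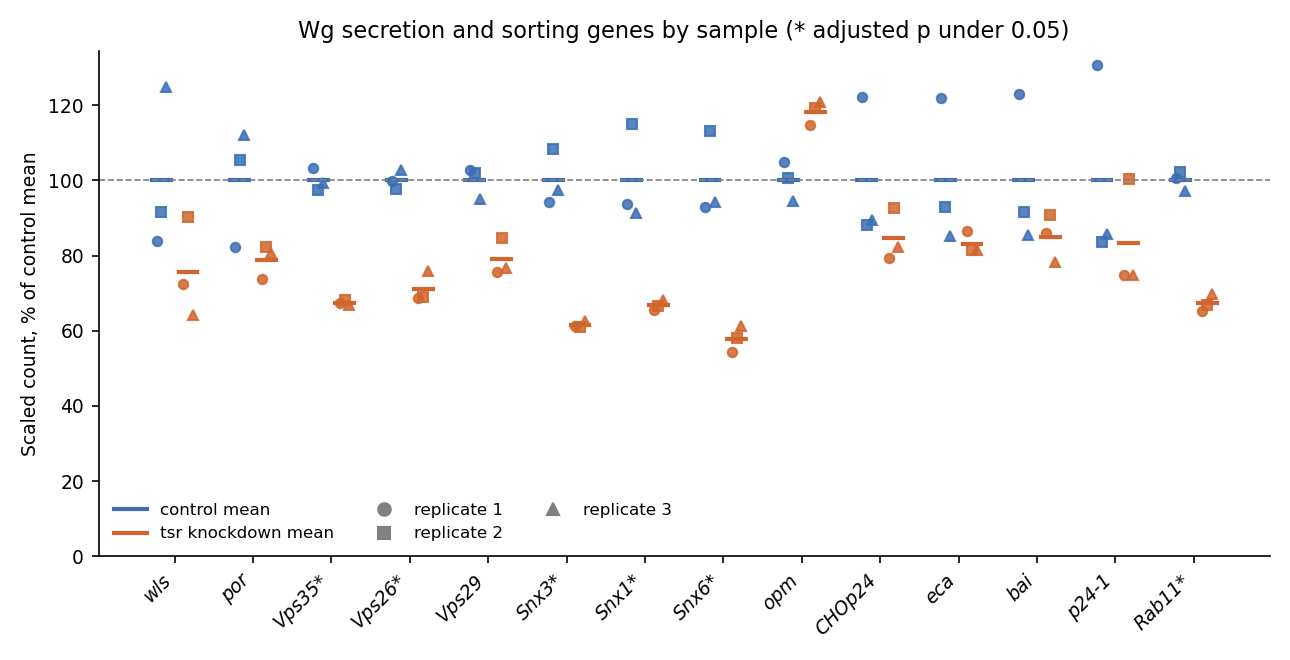
Scaled counts of wls, por and the tested secretion and sorting genes in each sample, as a percentage of the gene's control mean (bars: group means; asterisk: adjusted p under 0.05). The knockdown means of the 6 called genes lie between 57.9% and 71.2% of the control mean with no overlap, whereas wls and por, at 75.7% and 78.9%, were not called.

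Among the other Wnt ligands, Wnt4 rose. Its values were 162, 123 and 199 scaled counts in the controls and 380.0, 396 and 338 in the knockdown, so every knockdown sample lay above every control. The log2 fold change was 1.22 (SE 0.23, limma adjusted p = 0.0278). It was called in 1 of the 6 fits that left out a sample, and after rescaling to the sarcomere list it was 0.66 (limma adjusted p = 0.152). The other 3 tested ligand genes were not called, and 4.58% of all tested genes were called higher. Of the 6 listed, wntD was not analysed here and Wnt10 was below the filter.

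None of the 11 other receptor and co-receptor genes was called by limma, whereas 4 had an unadjusted p under 0.05, against 29.1% of all tested genes. The 2 with the smallest p were fz4, a further Frizzled gene, at -0.40 (limma adjusted p = 0.0869), and Nrk, a receptor kinase gene of the Ror family, at 1.54 (limma adjusted p = 0.109). DESeq2, which called 24.1% of all tested genes, called fz4 (adjusted p = 0.00769). Without control replicate 2 limma called Nrk (0.97, adjusted p = 0.0335). Values of Nrk were 201, 69.5 and 265 scaled counts in the controls, so that control replicate 2 was low, and 425, 565 and 389 in the knockdown.

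Of the 9 tested extracellular modulators and heparan sulphate enzymes 1 was called, higher, against 4.58% of all tested genes. Cow, a secreted heparan sulphate proteoglycan that binds Wg, had 589, 156 and 499 scaled counts in the controls and 1648, 1779 and 1692 in the knockdown. Control replicate 2 was again the low sample. The log2 fold change was 2.25 (SE 0.50, limma adjusted p = 0.0417), and it was 1.65 without control replicate 2 (limma adjusted p = 0.00598). edgeR gave 2.01 without a call (adjusted p = 0.0598), and Cow was called in 2 of the 6 fits that left out a sample.

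Neuron markers also had higher values in the knockdown. All 10 neuron markers had a log2 fold change above 0, with a list median of 1.99. In the list 3 were called higher, against 4.58% of all tested genes. The groups did not overlap for any of the 10 neuron markers, as in 36.4% of all tested genes in either direction. Their summed level was 7853 to 12680 scaled counts in the controls, lowest in replicate 2, and 25417 to 28773 in the knockdown. Of the 6 glia markers 1 was called, higher. The part of neuron and glia RNA in the values of Wnt4, Nrk, Cow, Apc and Grip was not tested.

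In the destruction complex list 1 of 18 tested genes was called higher and 1 lower, against 4.58% and 7.02% of all tested genes. Apc, a scaffold of the complex that marks Armadillo for destruction, rose from 2516 ± 123 to 3784 ± 621 scaled counts (SD, n = 3 each), a log2 fold change of 0.58 (SE 0.14, limma adjusted p = 0.0489). It was not called in any of the 6 fits that left out a sample, with log2 fold changes of 0.45 to 0.65, and was 0.02 after rescaling to the sarcomere list. Roc1a, the RING subunit of the ubiquitin ligases that include the Slimb complex, fell from 4452 ± 152 to 3166 ± 39.1 scaled counts (SD, n = 3 each), a log2 fold change of -0.49 (SE 0.08, limma adjusted p = 0.0206). Its call was kept in 2 of the 6 fits that left out a sample, and 115 of its exonic bases overlap Hmt4-20 on the other strand.

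None of the 14 nuclear transducer and co-regulator genes was called by limma, and 3 had an unadjusted p under 0.05, against 29.1% of all tested genes. The 2 with the smallest p were lgs, the adaptor between Armadillo and Pygopus, at -0.33 (limma adjusted p = 0.0628) and ebd2, a DNA-binding co-regulator gene, at -0.53 (limma adjusted p = 0.117). DESeq2, which called 24.1% of all tested genes, called both (adjusted p = 6.51e-05 for lgs and 0.0237 for ebd2).

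The list of Frizzled2 nuclear import at the muscle had 8 tested genes. In it 1 was called higher and 1 lower, against 4.58% and 7.02% of all tested genes. Grip, the PDZ protein that carries Frizzled2 towards the muscle nucleus, had 307, 286 and 159 scaled counts in the controls and 679, 519 and 885 in the knockdown. All knockdown samples lay above all controls, and the log2 fold change was 1.49 (SE 0.33, limma adjusted p = 0.0409). LamC, the A-type lamin of the nuclear envelope through which Frizzled2-containing granules leave the nucleus, had 13424, 11657 and 13275 scaled counts in the controls and 6665, 7513 and 7954 in the knockdown. The highest knockdown sample lay far below the lowest control, and the log2 fold change was -0.79 (SE 0.11, limma adjusted p = 0.0148). Grip was called in 1 and LamC in 3 of the 6 fits that left out a sample, and both were called by edgeR and DESeq2.

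The list of the planar cell polarity branch, which uses Frizzled and Dishevelled without Armadillo, had 13 tested genes and a median log2 fold change of -0.06, and 12 of them were not called.

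Of the 5 cadherin partners of Armadillo 1 was called, lower, against 7.02% of all tested genes. The alpha-catenin gene alpha-Cat had 4773, 5101 and 4958 scaled counts in the controls and 3460.2, 3479 and 3124 in the knockdown, with no overlap. Its log2 fold change was -0.56 (SE 0.09, limma adjusted p = 0.0192), and its call was kept in 3 of the 6 fits that left out a sample.

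Targets reported for Wg in other fly tissues, mainly the wing disc, were read as a list of 10 genes. In it 1 was called, lower, against 7.02% of all tested genes. The proneural gene ac fell from 72.7 ± 15.9 to 12.3 ± 8.4 scaled counts (SD, n = 3 each), from 6 to 93 recovered reads per sample, a log2 fold change of -2.62 (SE 0.59, limma adjusted p = 0.0437). edgeR gave -2.55 without a call (adjusted p = 0.0639), and ac was called in 1 of the 6 fits that left out a sample. The feedback genes fz3, nkd and Notum, singled out after their values were seen, had log2 fold changes of -0.20, 0.01 and -0.40 (limma adjusted p = 0.741, 0.974 and 0.427). Of the 10 targets 7 were highest in control replicate 3, against 14.6% of all tested genes. Since vg and Dll are on both this list and the imaginal disc list, the counts of those lists are not separate observations.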

How the data were processed

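Per the labels' protocols, Trizol-extracted RNA was made into libraries by SMARTer amplification. Amplified reads lacking molecular identifiers are not independent of each other. The submitters' processing notes name dm6, STAR 2.5.0a, Picard and HTSeq 0.5.3. The authors deposited 1 table of scaled counts, a signal equal to reads per gene divided by a size factor per sample. Values were whole multiples of 1 step per sample (100% within 0.01 of a whole read), and the reads recovered by division were used only for edgeR and DESeq2. In knockdown replicate 1 the step, 0.997, was close to 1. The annotation release, the strand setting and the scaling method are not given in the sources used here. The 4 rows outside genes were left out. They held 2.27% to 8.60% (not uniquely aligned), 2.36% to 3.20% (ambiguous), 7.77% to 9.84% (no feature) and 3.39% to 7.56% (not aligned) of each sample's total over all rows.

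Samples were grouped by title. Tests used limma 3.58.1 (trend, R 4.3.3) with a pseudocount of 1, a minimum mean of 10 and Benjamini-Hochberg adjustment over all tested genes. Fold changes are on the log2(scaled count + 1) scale. Alternatives used edgeR 4.0.16 (quasi-likelihood) and DESeq2 1.42.0, other pseudocounts, filters and scalings, a replicate block and leaving out each sample. Simulated counts were used to test the scripts. Positions, exon lengths and overlaps are from an Ensembl annotation in dm6 coordinates. It held 99.7% of the deposited genes. CG8786 and Ranbp11 were matched through synonyms as Rnf146 and Impbeta11. frc and wntD were not analysed here.

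The 9 members and all lists were chosen with earlier results of these data known. Named were all members, up to 4 called genes per list by smallest p (in lists with 0 calls, the first 2), tsr, and the 3 nearest profiles of wg, fz, fz2 and arr. Of the called genes 1 is not reported here. Labels call the replicates biological. They give no batch, so no within-batch value was possible.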

Additional observations from a re-analysis of the deposited data

How the results depend on the processing

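Of the 9 Wingless pathway genes 0 were called higher and 0 lower in the 6 fits that each left out a sample and in 9 of the 10 alternatives on all 6 samples. The exception, rescaling to the sarcomere list, called 2 lower, sgg and arm. Signs turned only for uncalled values of fz and arr. For fz the log2 fold change was 0.083 with upper-quartile rescaling and from -0.203 to 0.207 when a sample was left out. For arr it was from -0.243 to 0.067 when a sample was left out. The cause was not tested. The median of all genes was 0.06 in the original fit, 0.15 with upper-quartile rescaling, 0.03 with TMM, -0.50 with the sarcomere list, -0.09 by edgeR and -0.08 by DESeq2.

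Of the 99 other pathway genes 4 were called higher and 11 lower. Rescaling to the sarcomere list gave 2 higher and 37 lower, DESeq2 gave 24 lower, and the replicate block gave 0 and 0. Leaving out a sample gave 0 to 7 higher and 0 to 10 lower. Over all genes, 537 higher and 823 lower became 276 and 2897 with the sarcomere list, 1258 and 1569 by DESeq2 (398 genes had no adjusted p), 24 and 88 with the replicate block, and from 41 to 2222 higher and from 144 to 887 lower when a sample was left out. The samples share replicate numbers only: the correlations of deviations for equal numbers were -0.46, -0.03 and 0.19, so the block was not taken as a pairing. The fewest reads behind a member's value were 215, for wg. The error of counting was not bounded, since amplified reads are not independent.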
